A study of Mus musculus with 8 samples.

Results

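The genes of hydroxyacid oxidation and glyoxylate metabolism were followed in whole liver RNA of male mice, 4 of them MøFoxO1-KO and 4 their WT littermates. They are 8 of the 46517 genes in the count table: the hydroxyacid oxidases Hao1 and Hao2, the glyoxylate enzymes Agxt and Grhpr, the hydroxyproline enzymes Prodh2 and Hoga1, the D-amino acid oxidase Dao and the peroxisomal import receptor Pex5. The genes were picked by symbol after the low level of Hao2 in MøFoxO1-KO livers had been seen. The differences of the 8 genes between genotypes are therefore given as a description, with standard errors derived from the test statistic and without P values. Both groups were C57BL/6 mice with the FoxO1 loxP/loxP allele. MøFoxO1-KO mice also carried Cre recombinase under the lysozyme 2 (Lyz2) promoter, which is active in myeloid cells and not in hepatocytes, and WT littermates had no Cre. All mice were put on a NASH diet at 6 weeks of age, stayed on it for 25 weeks, and were 31 weeks old and fasted for 16 hours at the end.

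Glyoxylate is a small reactive acid that hepatocytes must remove, because its oxidation product, oxalate, precipitates as a calcium salt in the kidney. In hepatocyte peroxisomes Hao1 oxidizes glycolate to glyoxylate and Agxt turns glyoxylate into glycine. Grhpr reduces glyoxylate back to glycolate. The breakdown of hydroxyproline, an amino acid of collagen, is a second source of glyoxylate and runs through Prodh2 and Hoga1 in mitochondria. Inherited loss of AGXT, GRHPR or HOGA1 causes primary hyperoxaluria in humans. Hao2 is the paralog of Hao1 that prefers longer 2-hydroxy acids, and both oxidases release hydrogen peroxide.

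The 250 bases before the transcription start are shown for 4 of the genes, in capitals where a searched motif lies. Hao2 and Hao1 are shown as the paralogs with the largest and a small difference, Agxt as the gene with the largest increase and Prodh2 as the only other one with more than 1 HNF1 half-site. All 8 genes were matched by symbol to RefSeq start sites on GRCm38.p6, and the stretches are chr3:98893231-98893480 (minus strand) for Hao2, chr2:134554353-134554602 (minus strand) for Hao1, chr1:93134990-93135239 (plus strand) for Agxt and chr7:30493408-30493657 (plus strand) for Prodh2, each written 5′ to 3′ on the gene's own strand.
Hao2: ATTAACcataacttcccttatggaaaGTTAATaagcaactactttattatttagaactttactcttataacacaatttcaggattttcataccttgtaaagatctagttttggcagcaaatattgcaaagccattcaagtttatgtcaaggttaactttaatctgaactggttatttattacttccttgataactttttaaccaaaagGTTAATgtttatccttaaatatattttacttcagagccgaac
Hao1: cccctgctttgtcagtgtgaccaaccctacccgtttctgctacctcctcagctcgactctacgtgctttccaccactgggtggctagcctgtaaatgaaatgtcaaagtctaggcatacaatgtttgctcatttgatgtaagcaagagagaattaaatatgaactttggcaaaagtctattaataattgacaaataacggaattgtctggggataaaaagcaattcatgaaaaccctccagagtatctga
Agxt: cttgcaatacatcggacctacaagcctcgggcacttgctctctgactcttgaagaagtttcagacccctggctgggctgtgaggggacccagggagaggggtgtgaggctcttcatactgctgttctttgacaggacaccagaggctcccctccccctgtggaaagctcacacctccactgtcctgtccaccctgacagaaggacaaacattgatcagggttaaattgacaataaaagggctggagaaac
Prodh2: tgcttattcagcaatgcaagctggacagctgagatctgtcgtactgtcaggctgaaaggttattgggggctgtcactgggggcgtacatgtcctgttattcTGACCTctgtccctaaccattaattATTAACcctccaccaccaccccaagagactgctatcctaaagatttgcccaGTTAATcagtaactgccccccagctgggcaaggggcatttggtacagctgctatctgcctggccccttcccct
The capitals mark GTTAAT or its reverse complement ATTAAC, the half-site of the liver factor HNF1, and in Prodh2 also TGACCT, the reverse complement of the nuclear receptor half-site AGGTCA. Motifs were searched on both strands, no marked motif overlapped another, and the motifs were chosen with the results known.

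The Hao2 stretch held 3 HNF1 half-sites, which began 250, 224 and 42 bases before the start. Prodh2 held 2, Hoga1 held 1 and the other 5 genes held 0. Of 32851 promoter stretches of the same length, 6.43% held at least 1 HNF1 half-site, 0.441% at least 2 and 0.0213% at least 3. The stretches were matched by length only, so none of the shares given here takes base composition into account. The FoxO core GTAAACA, present in 3.17% of all stretches, and the STAT letters TTCNNNGAA, present in 7.02%, were in none of the stretches of the 8 genes. AGGTCA was in 14.0% of all stretches and, among the 8 genes, in Prodh2 and in 1 of the 3 annotated starts of Dao. The letters TATAAA were in 12.4% of all stretches and in none of the 8 genes. These are matches of letters, and no binding was measured.

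Total counts ranged from 15253218 to 18025481 per mouse, and 13278 genes with enough counts were tested. Normalized counts are counts divided by the TMM-scaled library size of the mouse, relative to the mean library size. Levels between genes are given as counts per kilobase of summed exon length, scaled to the library size (RPKM). The call needed both a Benjamini-Hochberg adjusted P under 0.05 in edgeR's quasi-likelihood test and a log2 fold change beyond 1.5 in either direction. It took in 25 genes, 0.188% of those tested, with 18 lower and 7 higher in MøFoxO1-KO livers. Foxo1, deleted in myeloid cells only, had 403 ± 73.8 normalized counts in WT livers against 359 ± 73.3 in MøFoxO1-KO livers (mean ± SD, n = 4 each), with overlapping groups, so the labels could not be checked against it in whole liver. The livers expressed the hepatocyte markers Alb, Apoa1, Ttr, Trf, Apob, Tat, Fgb and Serpina1c, whose summed normalized counts were 1058899 to 1494314 in WT and 1273326 to 1895764 in MøFoxO1-KO mice.

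Hao2 (ENSMUSG00000027870, chromosome 3, 98874521 to 98893239, minus strand) was far lower in MøFoxO1-KO than in WT livers. WT mice 22, 23, 24 and 25 had 353, 581, 55 and 566 Hao2 counts. MøFoxO1-KO mice 26, 27, 28 and 29 had 12, 1, 19 and 10 Hao2 counts. Every MøFoxO1-KO liver lay below every WT liver, although WT mouse 24 was far below the other WT mice. Counting error alone (exact Poisson 95% interval) placed WT mouse 24 between 41.4 and 71.6 counts and MøFoxO1-KO mouse 28, the highest of its group, between 11.4 and 29.7. Hao2 had 378 ± 245 normalized counts in WT livers against 10.5 ± 6.93 in MøFoxO1-KO livers (mean ± SD, n = 4 each), 36.2-fold apart. edgeR gave a log2 fold change of -5.12 ± 0.78 (SE), and it was -5.48 without WT mouse 24. Only 1 of the 13278 tested genes had a more negative value, a rank that restates the difference by which Hao2 was picked. In whole liver RNA, fewer cells of a type and less RNA per cell cannot be told apart.

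Hao1 (ENSMUSG00000027261, chromosome 2, 134497361 to 134554368, minus strand) did not share this pattern. In WT mice 22, 23, 24 and 25 it had 2217, 3187, 2031 and 2201 normalized counts. In MøFoxO1-KO mice 26, 27, 28 and 29 it had 3341, 2950, 2668 and 2198 normalized counts. The groups overlapped, with means of 2409 ± 525 in WT livers against 2789 ± 481 in MøFoxO1-KO livers (mean ± SD, n = 4 each). edgeR gave a log2 fold change of 0.21 ± 0.18 (SE), which was 0.38 without WT mouse 23, the highest WT liver, and 0.11 without MøFoxO1-KO mouse 26, the highest of its group. On the RPKM scale Hao2 made up 14.2, 16.6, 2.71 and 22.2% of the summed Hao1 and Hao2 level in WT mice 22, 23, 24 and 25. The same share was 0.381, 0.0450, 0.746 and 0.563% in MøFoxO1-KO mice 26, 27, 28 and 29. The paralog pair was thus mostly Hao1 in all 8 livers, and Hao2 held less than 1% of it in each MøFoxO1-KO liver. No 50-base stretch of the Hao1 or Hao2 transcripts occurs in a transcript of another gene.

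**Figure D1:**
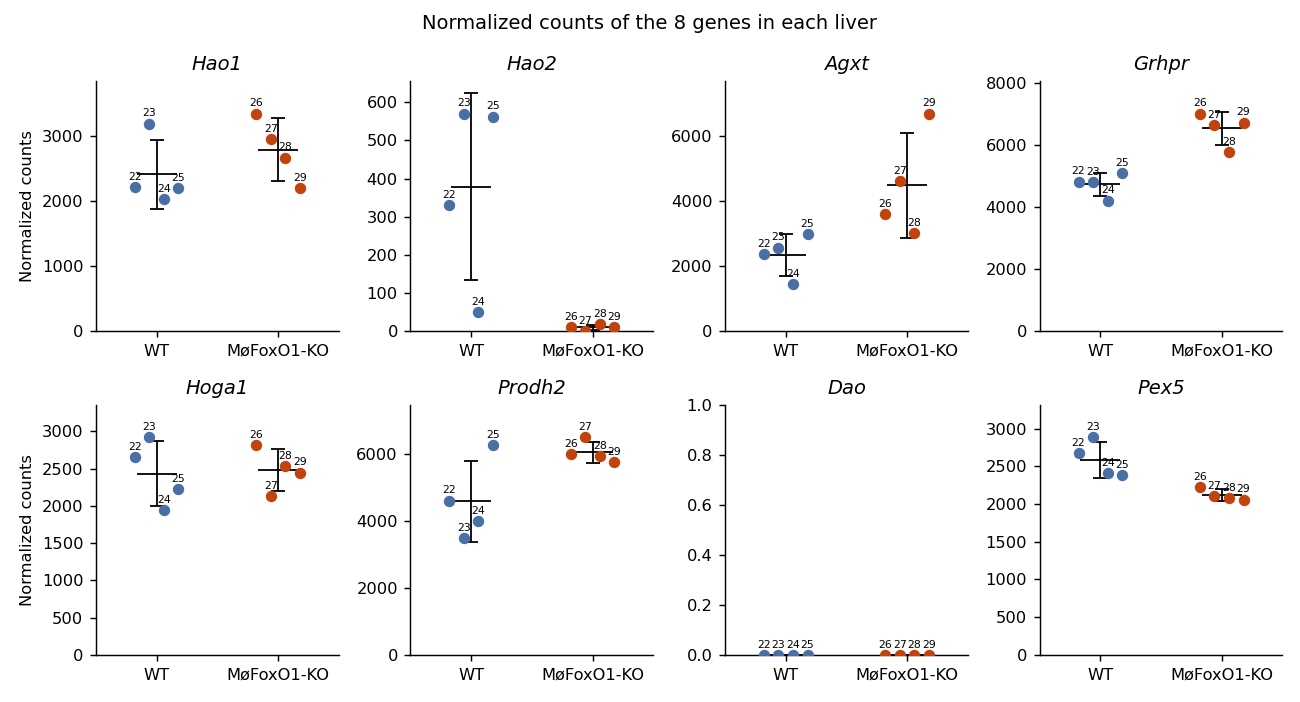
Normalized counts (vertical axes, linear, each from 0) of the 8 genes in the 4 WT and the 4 MøFoxO1-KO livers. Points are single mice with their numbers, horizontal lines are means and error bars are SD. Hao2 is near 0 in all MøFoxO1-KO livers, Agxt and Grhpr are higher in every MøFoxO1-KO liver than in any WT liver, Pex5 is lower, and Dao is at 0 in all 8.

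Both enzymes that remove glyoxylate were higher in all 4 MøFoxO1-KO livers. Agxt (ENSMUSG00000026272, chromosome 1, 93135240 to 93145421, plus strand) had 2367, 2567, 1437 and 2980 normalized counts in WT mice 22, 23, 24 and 25. It had 3603, 4612, 3007 and 6675 in MøFoxO1-KO mice 26, 27, 28 and 29. The groups did not overlap, but the gap was narrow, between 2980 in WT mouse 25 and 3007 in MøFoxO1-KO mouse 28, and MøFoxO1-KO mouse 29 stood above the rest of its group. Means were 2338 ± 653 in WT livers against 4474 ± 1610 in MøFoxO1-KO livers (mean ± SD, n = 4 each), 1.91-fold apart. edgeR gave a log2 fold change of 0.94 ± 0.28 (SE), and it was 0.68 without MøFoxO1-KO mouse 29.

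Grhpr (ENSMUSG00000035637, chromosome 4, 44981395 to 44990734, plus strand) varied less between mice. In WT mice 22, 23, 24 and 25 it had 4826, 4810, 4213 and 5095 normalized counts. In MøFoxO1-KO mice 26, 27, 28 and 29 it had 7018, 6651, 5787 and 6726. The lowest MøFoxO1-KO liver was above the highest WT liver, with means of 6546 ± 530 (SD, n = 4) against 4736 ± 373 (SD, n = 4), 1.38-fold apart. On the log2 scale Grhpr differed by 0.47 ± 0.12 (SE) and stayed between 0.41 and 0.53 when each mouse was left out in turn. The RPKM ratio of Agxt to Hao1 transcripts was 1.44, 1.08, 0.952 and 1.82 in WT mice 22, 23, 24 and 25. It was 1.45, 2.10, 1.52 and 4.09 in MøFoxO1-KO mice 26, 27, 28 and 29. The ratios of the groups overlapped. For Grhpr to Hao1 the RPKM ratio was 3.10, 2.15, 2.96 and 3.30 in WT and 2.99, 3.21, 3.09 and 4.36 in MøFoxO1-KO mice, in the same order, and the groups overlapped too.

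The enzymes of hydroxyproline breakdown had overlapping groups. Prodh2 (ENSMUSG00000036892, chromosome 7, 30493622 to 30513402, plus strand), which oxidizes hydroxyproline, had 4609, 3480, 4003 and 6257 normalized counts in WT mice 22, 23, 24 and 25. It had 6005, 6498, 5946 and 5754 in MøFoxO1-KO mice 26, 27, 28 and 29. WT mouse 25 lay within the MøFoxO1-KO group and the other WT mice lay below it. Means were 4587 ± 1205 in WT livers against 6051 ± 317 in MøFoxO1-KO livers (mean ± SD, n = 4 each), with a log2 fold change of 0.40 ± 0.18 (SE). The spread was wider in WT livers, with a coefficient of variation of 26.3% against 5.23%, a difference that was not tested. Of its 50-base stretches, 1.75% also occur in other genes.

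Hoga1 (ENSMUSG00000025176, chromosome 19, 42045610 to 42070953, plus strand), the aldolase that releases glyoxylate, had 2653, 2921, 1943 and 2223 normalized counts in WT mice 22, 23, 24 and 25. It had 2822, 2134, 2536 and 2446 in MøFoxO1-KO mice 26, 27, 28 and 29. The groups overlapped almost fully, with means of 2435 ± 436 (SD, n = 4) and 2485 ± 283 (SD, n = 4). edgeR gave a log2 fold change of 0.03 ± 0.15 (SE), which turned to -0.07 without WT mouse 24. Hoga1 shares 43 exon bases, 1.90% of its length, with 4933411K16Rik on the same strand.

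Pex5 (ENSMUSG00000005069, chromosome 6, 124396816 to 124415067, minus strand) encodes the receptor that brings most matrix enzymes, the hydroxyacid oxidases and Agxt among them, into the peroxisome. Its normalized counts were 2672, 2884, 2406 and 2380 in WT mice 22, 23, 24 and 25. They were 2228, 2102, 2078 and 2058 in MøFoxO1-KO mice 26, 27, 28 and 29. All MøFoxO1-KO livers lay below all WT livers by a small margin, with means of 2586 ± 239 in WT livers against 2116 ± 76.5 in MøFoxO1-KO livers (mean ± SD, n = 4 each). edgeR gave a log2 fold change of -0.29 ± 0.11 (SE).

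Dao (ENSMUSG00000042096, chromosome 5, 114003703 to 114025682, plus strand) oxidizes D-amino acids, yields glyoxylate from glycine, and is known in mice from kidney rather than liver. It had 0 counts in all 8 livers and was not tested. A count of 0 still allows up to 3 counts per mouse, or an RPKM of up to 0.0571 in the mouse where this limit was lowest and 0.0739 where it was highest. The limit covers counting error only. The kidney proximal tubule markers were also near absence: Slc34a1, Slc5a2, Kap, Umod and Slc22a8 had 0 counts in every liver, and the 8 markers together reached 0.935 to 9.93 normalized counts in WT and 2.87 to 4.74 in MøFoxO1-KO mice.

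Among the 7 tested genes, 5 had higher and 2 lower levels in MøFoxO1-KO livers, and their log2 fold changes had a median of 0.21 against -0.01 over all tested genes. Hao2 was the 1 called gene, which with each mouse omitted in turn kept its call in 2 of 8 fits, where 0.188% of all tested genes were called, 0.136% as lower and 0.0527% as higher. The groups did not overlap for 4 of the 7, 2 with MøFoxO1-KO livers above and 2 below, where the same was true of 9.71% of the tested genes (5.0% above and 4.71% below). Because the genes were chosen from this contrast, nothing further is read from these shares.

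Per length, Grhpr was the most abundant of the 8 in both genotypes. In WT livers its RPKM was 180, followed by Prodh2 at 114, Agxt at 84.1, Hoga1 at 65.8, Hao1 at 64.4, Pex5 at 40.0, Hao2 at 11.3 and Dao at 0. Neighbours from Prodh2 to Hao1 had overlapping ranges over the 4 WT mice, and the other neighbours were separate. In MøFoxO1-KO livers the RPKM was 249 for Grhpr, 161 for Agxt, 150 for Prodh2, 74.6 for Hao1, 67.2 for Hoga1, 32.8 for Pex5 and 0.312 for Hao2. There Agxt overlapped with both Grhpr and Prodh2, Hao1 overlapped with Hoga1, and the other neighbours were separate. Among all tested genes Hao2 was at the 76.5th percentile of RPKM in WT livers and at the 7.87th in MøFoxO1-KO livers. Hao2 was picked for this fall and entered the tested genes through its WT counts, so these ranks are a description.

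**Figure D2:**
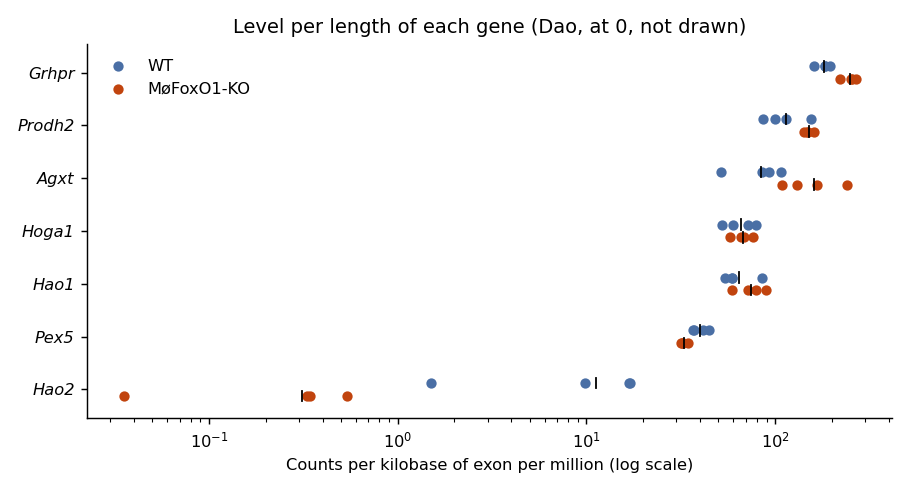
Level of each gene as RPKM (horizontal log axis) in every WT (blue) and MøFoxO1-KO (red) liver, with vertical ticks at the group means; Dao, at 0, cannot be drawn on a log axis. Hao2 spans 1.51 to 17.0 in WT and 0.0355 to 0.536 in MøFoxO1-KO livers, and its ranges do not meet those of the other 6 genes in either genotype.

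WT mouse 24 was the lowest WT liver for 5 of the 7 tested genes, namely Hao1, Hao2, Agxt, Grhpr and Hoga1, and it was the lowest WT liver for 25.1% of all tested genes. It also had the lowest summed hepatocyte markers of the WT mice, 1058899, and the highest summed macrophage markers, 5947. Without this mouse the log2 fold change was -5.48 for Hao2, 0.14 for Hao1, 0.76 for Agxt, 0.41 for Grhpr and -0.07 for Hoga1. MøFoxO1-KO mouse 29, the highest for Agxt, had the highest summed macrophage markers of all 8, 16470.

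Markers of the liver's cell types were summed beside these genes. In the hepatocyte list 7 of 8 markers had higher means in MøFoxO1-KO livers, with Serpina1c past an adjusted P of 0.05 (edgeR, Benjamini-Hochberg), and in the periportal list 8 of 11 were, with sums of 69576 to 123530 in WT and 72878 to 136019 in MøFoxO1-KO mice. The pericentral list had 5 of 10 higher. The endothelial list had 7 of 7 higher and the stellate and fibroblast list 4 of 9. Of tested markers, 7 of 9 were higher in the neutrophil and lymphocyte list and 0 of 5 in the cholangiocyte list. None of these 4 lists held a marker past an adjusted P of 0.05 (edgeR, Benjamini-Hochberg). In the macrophage list, which includes the Lyz2 gene, 9 of 10 were higher and 0 were past an adjusted P of 0.05 (edgeR, Benjamini-Hochberg). Macrophage sums were 3921 to 5947 in WT mice and 6275, 10862, 3954 and 16470 in MøFoxO1-KO mice 26, 27, 28 and 29. MøFoxO1-KO mouse 28 lay within the WT range. Over all tested genes, 48.3% were higher in MøFoxO1-KO livers and 0.294% were past that limit in either direction. Stellate and fibroblast markers summed to 4634 to 7423 and 5021 to 8380, endothelial markers to 1701 to 4221 and 3069 to 4762, cholangiocyte markers to 1310 to 1725 and 980 to 1495, and neutrophil and lymphocyte markers to 87.3 to 309 and 163 to 392, in WT and MøFoxO1-KO mice. Adipocyte markers, of which 1 of 5 was tested, summed to 2342, 2047, 142 and 384 in WT mice 22, 23, 24 and 25. In MøFoxO1-KO mice 26, 27, 28 and 29 they summed to 5.74, 11.9, 4507 and 0, so mouse 28 alone set the upper end. A single adipocyte marker reached 4756 raw counts there, so nearly all of that sum came from 1 gene and does not describe the list. Lep was at 0 in all livers. No macrophage, hepatocyte or zonation marker was at 0 in all livers. The part of cell composition in the differences of the 8 genes was not tested.

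Between mice of one genotype, some of the genes varied together. After the group means were taken off the log2 values, Hoga1 and Pex5 had a Pearson r of 0.85 over the 8 livers, Hao1 and Pex5 0.81, Hao2 and Hoga1 0.76, and Agxt and Grhpr 0.74. Hao1 and Agxt had an r of -0.09 and Prodh2 and Pex5 one of -0.60. WT mouse 24 and MøFoxO1-KO mouse 27, with 55 and 1 Hao2 counts, were the lowest of their groups for both Hao2 and Hoga1. The r values of Hao2 therefore rest mostly on these mice. Pairs measured in the same 8 libraries share their depth and scaling, so all r values given here are a description.

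**Figure D3:**
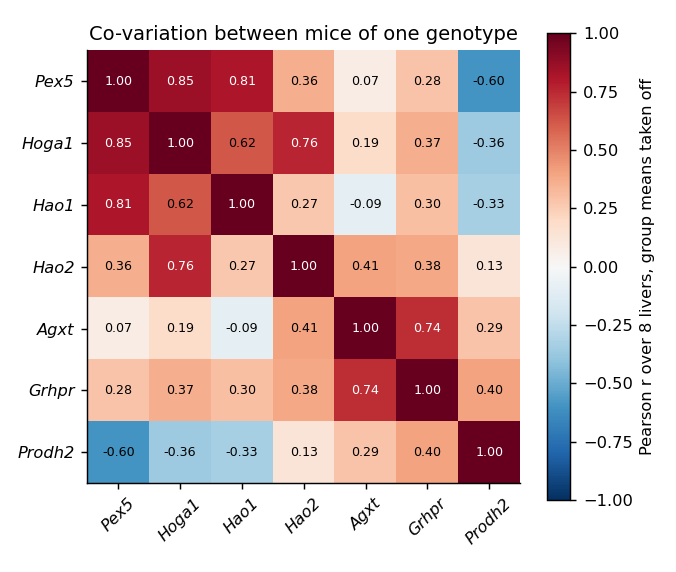
Pearson r between pairs of the 7 tested genes over the 8 livers, after the group means were taken off log2 normalized counts (color scale from -1 to 1). The highest values join Pex5 with Hoga1 (0.85) and with Hao1 (0.81), and the lowest is between Prodh2 and Pex5 (-0.60).

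Searched over the 10388 genes whose mean reached 50 normalized counts, genes with a pattern among the most like that of Hao2 within genotypes were Nudt16l1 (r = 0.99), Rdh5 (0.95), Pde1a (0.94) and Gm26608 (0.94), over 8 mice. For Hao1 they were Pex11g (0.995), Slc22a23, Armh3, Tfb1m and Nectin1 (each 0.99). The within-genotype pattern of Hao2 rests mostly on WT mouse 24 and MøFoxO1-KO mouse 27, which had few Hao2 counts. With 8 mice and 10388 genes, values this high are picked from many. None of these genes was past an adjusted P of 0.05 between genotypes (edgeR, Benjamini-Hochberg), and the smallest was 0.165 for Nectin1.

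Genes near Hao2 were examined because the Hao2 gene lies beside the Hsd3b cluster of steroid dehydrogenases. Hao2 itself is counted among the 34 genes whose lower coordinate lies within 500 kb of its own. Of these, 6 were tested, Hao2 included, and the other 28 had at most 3 counts in any mouse. Hsd3b5 (ENSMUSG00000038092), a 3-ketosteroid reductase typical of male mouse liver that lies 256 kb away, had 13, 3, 49 and 31 counts in WT mice 22, 23, 24 and 25. It had 3918, 2897, 1238 and 692 counts in MøFoxO1-KO mice 26, 27, 28 and 29. The groups were far apart, with 22.8 ± 18.9 (SD, n = 4) and 2286 ± 1530 (SD, n = 4) normalized counts, and WT mouse 24, the lowest for Hao2, was the highest WT mouse for Hsd3b5. The log2 fold change of Hsd3b5 was 6.64 ± 0.76 (SE, adjusted P = 0.0136 by edgeR with Benjamini-Hochberg correction), the largest increase of all tested genes, opposite in direction to Hao2. Its adjusted P was 0.0513 without WT mouse 25 (edgeR, Benjamini-Hochberg). Hsd3b5 entered the tested genes through its MøFoxO1-KO counts, so its adjusted P and rank are a description. It could not be fitted with at least 10 counts required in every mouse.

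Hsd3b2, 165 kb from Hao2, had 644 ± 122 normalized counts in WT livers against 1275 ± 177 in MøFoxO1-KO livers (mean ± SD, n = 4 each), with a log2 fold change of 0.98 ± 0.16 (SE, adjusted P = 0.0377 by edgeR with Benjamini-Hochberg correction). Its adjusted P reached 0.135 without MøFoxO1-KO mouse 27 (edgeR, Benjamini-Hochberg). Hsd3b3, 133 kb from Hao2, differed by 0.01 ± 0.34 (SE), and its sign turned to -0.20 without MøFoxO1-KO mouse 26. Wars2, the mitochondrial tryptophanyl-tRNA synthetase 267 kb on the other side, had a log2 fold change of -0.37 ± 0.20 (SE), and Zfp697, 492 kb away, had -0.18 ± 0.31 (SE), which ranged from -0.37 without MøFoxO1-KO mouse 28 to -0.04 without WT mouse 23. Of the 50-base stretches in their transcripts, 26.9% for Hsd3b2, 21.2% for Hsd3b5 and 8.73% for Hsd3b3 occur in other genes, so reads may be split within the Hsd3b family. Zfp697 overlaps exons of Hsd3b2 and Hsd3b3 on the opposite strand, and whether counting used strand is not given in the sources used here.

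**Figure D4:**
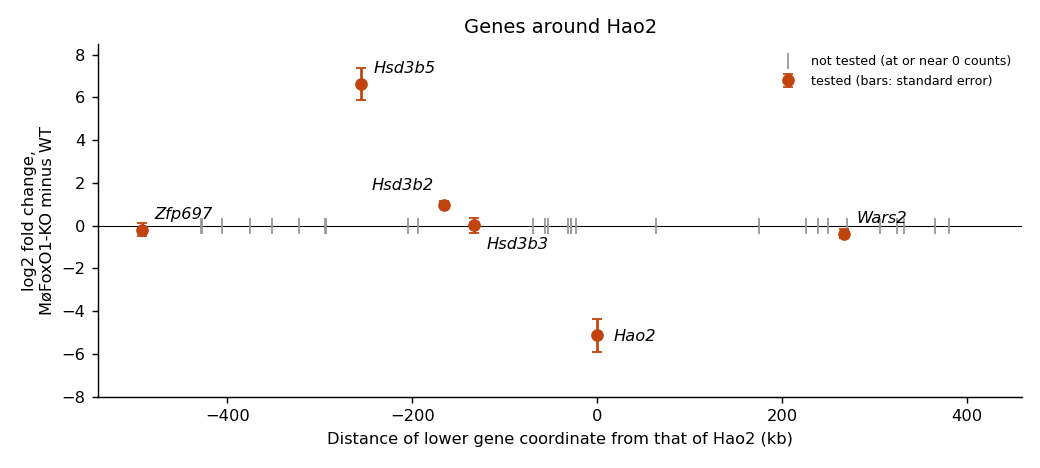
Log2 fold change (MøFoxO1-KO minus WT, points with standard errors) of the 6 tested genes within 500 kb of Hao2, against the distance of each gene's lower coordinate from that of Hao2 in kb; grey ticks mark the 28 untested genes. Hao2 at -5.12 and Hsd3b5 at 6.64 lie at opposite ends, and the other 4 tested genes lie between -0.37 and 0.98.

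The wider pathway was described with 7 lists that hold 111 other genes, 107 of them tested. Of these, 44 had higher and 63 lower levels in MøFoxO1-KO livers, and the median on the log2 scale was -0.05 against -0.01 over all tested genes. None was called by edgeR at both limits, where 0.188% of all genes were called. At an adjusted P under 0.05 alone, which 0.294% of all genes passed, 1 gene was past the limit. At an unadjusted P under 0.05 there were 10 higher and 9 lower, 19 of 107, where 16.7% of all tested genes passed. DESeq2, which called 1.09% of all genes at both limits, called 1 of the 107, Psat1, a serine synthesis enzyme that was named after its values were seen and had 67.2 ± 66.2 (SD, n = 4) and 12.5 ± 6.11 (SD, n = 4) normalized counts. At an adjusted P under 0.05 alone, DESeq2 passed 8 of the 107 (5 higher and 3 lower), where 4.42% of all genes passed.

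The gene past the limit in edgeR was Nudt7, a peroxisomal hydrolase of coenzyme A. It had 2721, 2315, 2044 and 2034 normalized counts in WT mice 22, 23, 24 and 25. It had 4832, 5264, 4034 and 5002 in MøFoxO1-KO mice 26, 27, 28 and 29. The groups were well separated, with a log2 fold change of 1.07 ± 0.14 (SE, adjusted P = 0.0171 by edgeR with Benjamini-Hochberg correction). The fold change stayed between 1.02 and 1.17 when mice were left out, and the adjusted P reached 0.0916 without MøFoxO1-KO mouse 27 (edgeR, Benjamini-Hochberg).

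In the list of peroxisomal lipid enzymes and transporters, which holds Nudt7, 13 of 32 tested genes were higher and 19 lower (median -0.06). Abcd2, a peroxisomal transporter of very long chain acyl-CoA, had 227, 583, 399 and 275 normalized counts in WT mice 22, 23, 24 and 25 and 20.1, 20.3, 24.6 and 194 in MøFoxO1-KO mice 26, 27, 28 and 29. MøFoxO1-KO mouse 29 lay apart from its group and just under the lowest WT mouse. The log2 fold change of Abcd2 was -2.53 ± 0.71 (SE, adjusted P = 0.145 by edgeR with Benjamini-Hochberg correction), and without MøFoxO1-KO mouse 29 it was -4.09 (adjusted P = 0.0112 by edgeR with Benjamini-Hochberg correction).

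Among glyoxylate, glycine and serine enzymes 12 of 24 tested genes were higher and 12 lower (median 0.00). None passed an adjusted P of 0.05 in edgeR (Benjamini-Hochberg), and 4 did in DESeq2, namely Gpt2, Sdsl, Psat1 and Hagh, the last named after its values were seen. Gpt2, the mitochondrial alanine aminotransferase, had 8494 ± 4661 normalized counts in WT livers against 3874 ± 1570 in MøFoxO1-KO livers (mean ± SD, n = 4 each), with a log2 fold change of -1.13 ± 0.38 (SE, adjusted P = 0.195 by edgeR with Benjamini-Hochberg correction), and of -0.67 without WT mouse 23. Sdsl, a serine dehydratase-like enzyme, had 163 ± 38.5 (SD, n = 4) and 303 ± 110 (SD, n = 4), with a log2 fold change of 0.89 ± 0.26 (SE, adjusted P = 0.161 by edgeR with Benjamini-Hochberg correction). In the hydroxyproline and proline list 3 of 8 were higher and 5 lower (median -0.07). The cytosolic aspartate aminotransferase Got1 had a log2 fold change of 0.52 ± 0.46 (SE), which was -0.10 without MøFoxO1-KO mouse 29.

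Hydroxyacid dehydrogenases had 4 of 11 higher and 7 lower (median -0.09). Ldha, the lactate dehydrogenase that can oxidize glyoxylate to oxalate, had 16118 ± 1918 normalized counts in WT livers against 21996 ± 7114 in MøFoxO1-KO livers (mean ± SD, n = 4 each), with a log2 fold change of 0.45 ± 0.22 (SE, adjusted P = 0.347 by edgeR with Benjamini-Hochberg correction), and of 0.28 without MøFoxO1-KO mouse 29. Bdh2, a hydroxybutyrate dehydrogenase, had a log2 fold change of 0.65 ± 0.29 (SE, adjusted P = 0.285 by edgeR with Benjamini-Hochberg correction), and of 0.42 without WT mouse 24. The list of 2-hydroxy and branched fatty acids, which includes enzymes for the kind of acid that Hao2 oxidizes, had 4 of 6 tested genes higher and 2 lower (median 0.08). In it Aldh3a2, the fatty aldehyde dehydrogenase, had 15754 ± 2990 in WT livers against 10127 ± 1462 in MøFoxO1-KO livers (mean ± SD, n = 4 each) without overlap, with a log2 fold change of -0.64 ± 0.17 (SE, adjusted P = 0.131 by edgeR with Benjamini-Hochberg correction), and it was the 1 gene of its list that passed 0.05 in DESeq2. Hacl1, which cleaves 2-hydroxy acyl-CoA, had -0.25 ± 0.28 (SE), and 0.05 without WT mouse 23.

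Peroxisomal oxidases and peroxide-removing enzymes had 4 of 11 higher and 7 lower (median -0.03). Prdx5, a peroxiredoxin, had 4820 ± 569 normalized counts in WT livers against 7301 ± 455 in MøFoxO1-KO livers (mean ± SD, n = 4 each) without overlap, with a log2 fold change of 0.60 ± 0.13 (SE, adjusted P = 0.0968 by edgeR with Benjamini-Hochberg correction). Paox, a polyamine oxidase, had a log2 fold change of 0.43 ± 0.17 (SE). Catalase (Cat), named as the main peroxide-removing enzyme of peroxisomes and outside the rule for named genes, had -0.15 ± 0.16 (SE). Of the peroxins, the proteins that build peroxisomes, 4 of 15 tested were higher and 11 lower (median -0.04), with log2 fold changes of -0.54 ± 0.21 (SE) for Pex11a, which controls peroxisome number, and 0.27 ± 0.20 (SE) for Pex10. In edgeR (Benjamini-Hochberg) no gene of these oxidase and peroxin lists passed an adjusted P of 0.05, and in DESeq2 Prdx5 and Ephx2 did, the latter named after its values were seen.

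**Figure D5:**
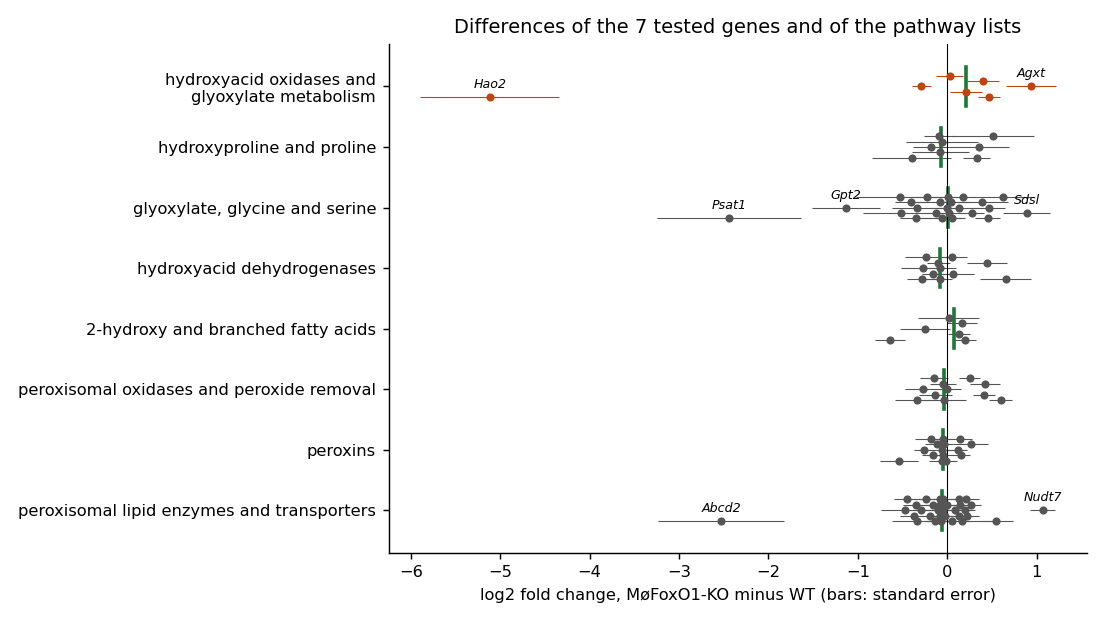
Log2 fold change (MøFoxO1-KO minus WT, horizontal axis) of the 7 tested genes (red) and of the 107 tested genes of the 7 pathway lists (grey), with standard errors as thin bars and list medians as green ticks. List medians lie between -0.09 and 0.08 for the pathway lists, and Hao2 at -5.12 is the most negative point drawn.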

How the data were processed

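Whole liver RNA of 4 MøFoxO1-KO and 4 WT mice was sequenced after poly-A selection. The authors deposited raw read counts per Ensembl gene, and the submitters' processing notes name STAR, featureCounts and mm10 (GRCm38). Versions, strandedness and the handling of multi-mapped reads are not given in the sources used here. Symbols were taken from GENCODE M21 (46005 of 46517 genes).

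Genes were filtered with filterByExpr (minimum count 10, minimum total 15) and fitted with edgeR 4.0.16 in R 4.3.3 (TMM, quasi-likelihood F test, no covariates), and P values were adjusted by Benjamini-Hochberg over 13278 genes. The fit was run on simulated data with 200 changed genes. Their counts were drawn with the dispersions of the fit itself, so this checked the code and not the calls for real genes. Standard errors from edgeR are the absolute log2 fold change divided by the square root of the F statistic. They carry the same information as the test and are not a separate estimate of the spread between mice. Alternatives were DESeq2 1.42.0, other scalings and filters, the robust fit and leaving out each mouse. The limits of 0.05 and 1.5 follow the study's methods, with the second read as absolute. The study reported many more genes at these limits than were called here, and the reason was not tested. Motifs and 50-base stretches were searched in RefSeq promoters and GENCODE transcripts. Named pathway genes are those called and, per list, the 2 with the largest absolute log2 fold change among those whose mean reached 50 normalized counts, the 5 genes with the highest r to Hao2 and the 5 to Hao1 were also named, and neighbours have their lower coordinate within 500 kb of that of Hao2. Some genes that meet these rules are not reported here. The genes, lists and tests were chosen with earlier results of these data known. Total counts of 15253218 to 18025481 per mouse limit the precision for genes with few counts, and intervals cover counting error only.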

Additional observations from a re-analysis of the deposited data

Results flagged for a closer look

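Within each genotype, the highest and the lowest mouse were compared with the other 3 by Dixon's test. Of 52 groups (26 genes), 4 held a mouse that stood apart, where chance gives about 1 in 20. Hao1 had 3187 normalized counts in WT mouse 23, against 2031 to 2217 in the other WT mice. Gpt2 had 15463 in WT mouse 23, against 5717 to 6641 in the other WT mice. Ldha had 18968 in WT mouse 24, against 14809 to 15433 in the other WT mice. Abcd2 had 194 in MøFoxO1-KO mouse 29, against 20.1 to 24.6 in the other MøFoxO1-KO mice.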

How the results depend on the processing

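No paired analysis was possible because the sample labels give no litter or pair for these littermates, so any effect of litter could not be taken into account. Hao2 stayed lower in all 14 fits, with log2 fold changes from -5.49 without MøFoxO1-KO mouse 28 to -4.77 without MøFoxO1-KO mouse 27. It was called in 7 of the 14, which include 2 of the 8 fits that left out 1 mouse (without WT mouse 24 or MøFoxO1-KO mouse 28), and not by the robust fit. It could not be fitted with at least 10 counts required in every mouse. The log2 fold changes of the other 6 tested genes moved by less than the spread between mice in 84 of 84 alternatives, and the medians of the 7 pathway lists in 98 of 98. For the fits that left out 1 mouse, this outcome was nearly fixed in advance. Omitting 1 mouse moves a group mean by less than the spread between mice, so those fits cannot measure stability on this scale. The sign of Hoga1 was positive in 12 of 15 fits.

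The 25 called genes became 144 with DESeq2 (69 higher and 75 lower), 120 without the filter on low counts and 39 at the adjusted P alone. Leaving out 1 mouse gave 3 (without WT mouse 25) to 82 (without MøFoxO1-KO mouse 28), with 15 without WT mouse 22 and 9, 7 and 13 without MøFoxO1-KO mice 26, 27 and 29. Of the pathway genes, 1 was called with DESeq2 (Psat1), 1 without the filter (Abcd2), 1 at the adjusted P alone (Nudt7), and 0 to 1 with 1 mouse left out. With 7 mice the fit still pools the spread over both genotypes. The cause of these changes was not tested. Depth limits the values of Hao2, with 42 counts in all MøFoxO1-KO livers together, and of Dao, with 0 in all livers.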
